A study of Mus musculus with 25 samples.

Results

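Trim21, Ssb and Sptan1 encode proteins that autoantibodies bind in Sjögren's syndrome (SjS), an autoimmune disease of the salivary and lacrimal glands. The genes were picked by their symbols in the array's probe annotation and not by their signals, but with earlier results of these data known. They were 3 of the 18194 genes measured, read by 8 of the 45101 probe sets. RNA came from salivary gland tissue of 25 mice, all male and of the strain C57BL/6.NOD-Aec1Aec2, taken every 4 weeks from 4 to 20 weeks after birth, with 5 individual mice at each of 5 ages and 1 array per mouse. The strain carries 2 intervals of the NOD mouse, Aec1 (Idd3, chromosome 3) and Aec2 (Idd5, chromosome 1), on the C57BL/6 background, and the comparison of ages asked which transcripts change while its SjS-like disease develops. Per the study's methods, a sample was 1 lobe of the gland (submandibular, sublingual and parotid) with the salivary lymph nodes removed, and the mice of an age came from at least 2 litters. All mice were untreated and carried both intervals, and no array of the parental C57BL/6J strain was analysed here, so growth of the gland and the disease cannot be told apart. The acinar markers Aqp5, the water channel of the secretory membrane, and Bhlha15, a regulator of secretory cells, averaged 10.9 to 11.5 and 7.91 to 8.69 on the log2 scale over the 5 ages, as the labelled tissue has them.

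The 3 proteins have separate roles in the cell. Trim21, the Ro52 antigen, is a cytosolic ubiquitin ligase that binds the constant part of antibodies and is itself induced by interferon. Ssb, the La antigen, binds the uridine-rich ends of new RNA polymerase III transcripts and protects them from nucleases. Sptan1, non-erythroid alpha-spectrin or alpha-fodrin, forms the membrane skeleton with beta-spectrins and is cut by calpains and caspases. Ro and La antibodies are the serological hallmark of the disease, and cleaved alpha-fodrin was proposed as a gland antigen.

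The promoters of the members are shown because the values of Trim21 followed those of interferon-stimulated genes across the mice, as described below. Each window runs from 250 bases before the annotated start to 30 bases after it, as given by RefSeq for the build GRCm38.p6, and capitals mark the interferon-response motif, a pair of GAAA half-sites set apart by any 2 bases. All 3 genes had a window. None of them lies on the chromosomes of the NOD intervals.

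Trim21 (chr7:102565453-102565732, minus strand): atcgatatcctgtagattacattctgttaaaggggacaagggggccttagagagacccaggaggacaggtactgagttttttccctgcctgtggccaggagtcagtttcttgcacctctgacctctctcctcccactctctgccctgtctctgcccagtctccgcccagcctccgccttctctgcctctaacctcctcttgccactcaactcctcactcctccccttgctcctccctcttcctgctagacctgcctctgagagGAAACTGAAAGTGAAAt

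Ssb (chr2:69861312-69861591, plus strand): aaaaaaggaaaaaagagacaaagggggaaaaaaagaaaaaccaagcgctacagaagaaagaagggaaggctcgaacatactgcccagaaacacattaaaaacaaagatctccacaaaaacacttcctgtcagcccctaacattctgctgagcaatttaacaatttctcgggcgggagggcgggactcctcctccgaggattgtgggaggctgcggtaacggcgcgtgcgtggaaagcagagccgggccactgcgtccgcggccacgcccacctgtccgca

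Sptan1 (chr2:29965310-29965589, plus strand): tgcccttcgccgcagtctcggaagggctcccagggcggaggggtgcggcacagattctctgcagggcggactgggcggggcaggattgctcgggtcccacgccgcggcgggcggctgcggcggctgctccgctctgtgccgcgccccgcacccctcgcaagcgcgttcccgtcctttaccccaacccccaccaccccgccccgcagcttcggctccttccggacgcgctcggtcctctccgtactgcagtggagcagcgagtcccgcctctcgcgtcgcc

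The Trim21 window held 2 overlapping matches on the strand of the gene, GAAACTGAAA from base 14 and GAAAGTGAAA from base 20 of the transcript. The windows of Ssb and Sptan1 held 0 matches, searched on both strands. Over the whole table, with windows running to 50 bases after the start, 3.44% of 32851 windows and 3.99% of 27025 genes had a match. Of the 30 genes of the interferon-stimulated list (below) with a window, 15 had one. The windows also differed in base composition. G and C made up 54.6% of the Trim21 window, 52.5% of the Ssb window and 73.9% of the Sptan1 window, with 3, 17 and 36 CG steps against a median of 6 over all windows. A match to these letters is a description of the sequence and not a measured binding site.

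Levels are log2 signals as deposited. A gene's value is the mean of its probe sets whose mean over the 25 arrays lay above 3.27, the median over all probe sets, and such probe sets are called expressed. Of the 8 probe sets of the members 7 were expressed. Trim21 had 1 expressed probe set, 1448940_at, and 1 below the median, 1418077_at. Ssb had 4 and Sptan1 had 2, all expressed. Signals of different probe sets are not on a common scale, so no level of a gene is set against that of another gene. A difference between ages is a difference of mean log2 values, and it was tested with limma, with p-values adjusted over all 18194 genes by the Benjamini-Hochberg method and a threshold of 0.05. In whole glands, a change in RNA per cell and a change in the number of cells of a type cannot be told apart.

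None of the 3 genes passed this threshold at any age. Of the 30 comparisons, 10 pairs of ages for each gene, 0 had an adjusted p under 0.05 and 6 had an unadjusted p under 0.05 in limma. Those 6 were Trim21 at 12 and 16 against 4 weeks, Ssb at 16 against 8, and Sptan1 at 16 against 8, 20 against 8 and 20 against 12. The unadjusted shares of all genes given below cover the comparisons with 4 weeks only. In all 12 comparisons with 4 weeks the values of the ages overlapped, where those of 8.63%, 33.6%, 4.38% and 2.57% of all genes did not at 8, 12, 16 and 20 weeks. Against 4 weeks, 2.26% of all genes passed at 8 weeks, 7.01% at 12, 3.4% at 16 and 2.65% at 20 weeks, and 14.0%, 20.7%, 14.4% and 12.4% had an unadjusted p under 0.05 in limma. Between the later ages 0.0055% of genes passed for 12 against 8 weeks, 0.0165% for 16 against 8, 0.0824% for 20 against 8, 0.0055% for 16 against 12, 0.83% for 20 against 12 and 0.0275% for 20 against 16. The F-test over the 5 ages gave adjusted p-values of 0.449 for Trim21, 0.594 for Ssb and 0.234 for Sptan1, and 4.66% of genes passed it. On the B-statistic of polynomial trends in age, the measure of the study's methods, the highest terms were -4.09, -3.86 and -3.79 against a threshold of 1.5, which 1.92% of genes exceeded. A p that misses the threshold does not show that the ages were alike, and the intervals below give the differences that remain possible.

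Libraries of uneven quality bear on these tests. By the median correlation with the other mice of its age, 3 arrays were lowest, mouse 3 at 20 weeks (r = 0.887), mouse 5 at 20 weeks (0.973) and mouse 2 at 16 weeks (0.974), while the other 22 lay between 0.979 and 0.996. Mouse 3 at 20 weeks also had the largest excess of 3′ over 5′ signal for the control transcript Gapdh, 3.87 on the log2 scale against 0.05 to 1.68 in the other mice, a sign of shortened RNA. Separately, mice 3 and 4 at 16 weeks had the highest means of the B and plasma cell list (11 genes, 5 of them expressed), 6.14 and 6.08, where the other 23 mice had 2.57 to 4.78.

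Trim21 was lowest on average at 4 weeks, and its means at the later ages lay 0.25 to 0.40 higher on the log2 scale, without passing the adjusted threshold. The 5 mice of 4 weeks had Trim21 values of 6.12, 5.61, 5.55, 5.81 and 6.13. The 5 mice of 8 weeks had 6.10, 6.04, 6.08, 6.22 and 6.12. So 3 of the youngest mice lay below every 8-week-old mouse, and the other 2 lay among them. At 12 weeks the values were 6.11, 6.34, 6.07, 6.27 and 6.42, and at 16 weeks they were 6.24, 5.49, 6.61, 6.66 and 6.10. The 16-week group held both the lowest and the highest Trim21 values of all 25 mice. At 20 weeks the values were 6.10, 6.06, 6.25, 5.89 and 6.16, again above the same 3 of the youngest mice and level with the other 2.

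The mean Trim21 level (± SD, n = 5) was 5.84 ± 0.27 at 4 weeks, 6.11 ± 0.069 at 8 weeks, 6.24 ± 0.15 at 12 weeks, 6.22 ± 0.47 at 16 weeks and 6.09 ± 0.13 at 20 weeks. In order of level these were 12, 16, 8, 20 and 4 weeks, and no neighbours in this order passed the test. The difference from 4 weeks was 0.40 at 12 weeks (SE 0.16, 95% interval 0.06 to 0.73, limma adjusted p = 0.148), or 1.32-fold, and 5 of 5 mice of that age lay above the median of the 4-week-old mice. At 16 weeks it was 0.38 (interval 0.04 to 0.71, limma adjusted p = 0.265), with 4 of 5 mice above that median. At 8 and 20 weeks it was 0.27 and 0.25 (limma adjusted p = 0.514 and 0.649). For comparison, the median difference of all genes with an expressed probe set was 0.10 at 8 weeks, 0.14 at 12 weeks, 0.02 at 16 weeks and 0.06 at 20 weeks. When the arrays were brought to a common distribution by quantile normalization, the Trim21 differences at 8 and 12 weeks shrank to 0.01 and 0.11, and those at 16 and 20 weeks were 0.30 and 0.24.

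**Figure D1:**
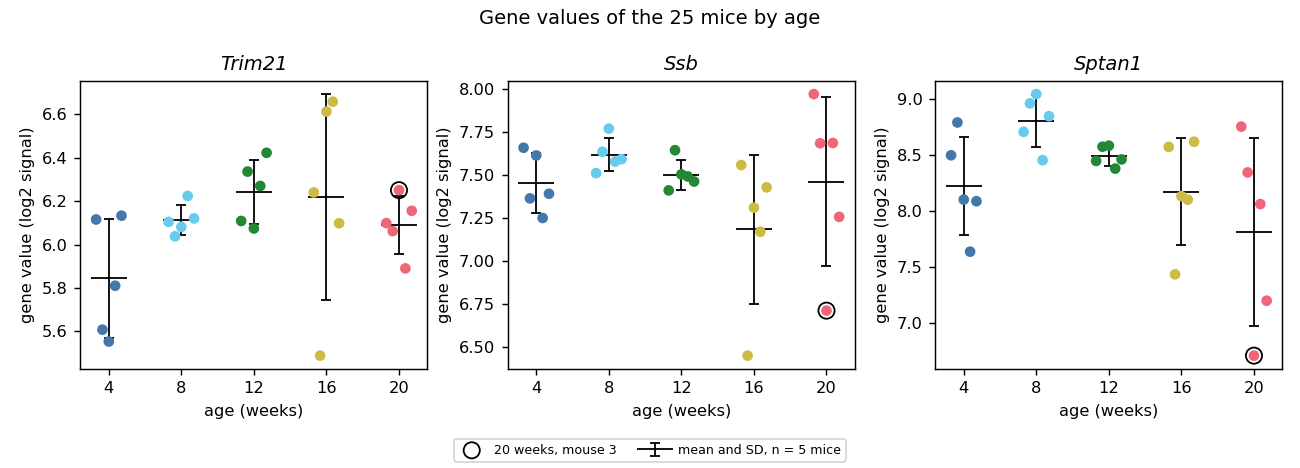
Gene values (vertical axis, log2 signal) of Trim21, Ssb and Sptan1 in the 25 mice by age in weeks (horizontal axis), with 1 point per mouse, the mean and SD of 5 mice as a bar with whiskers, and a ring around mouse 3 at 20 weeks. The ages overlap in every panel, the Trim21 mean is lowest at 4 weeks, and the low Ssb and Sptan1 points at 16 and 20 weeks belong to few mice.

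The 16-week value of Trim21 depended on which mice were counted. Its 2 highest mice, mice 3 and 4, were those with the high B and plasma cell means given above. They also had the highest T cell and lymph node vessel list means of that age. These were 3.79 in each against 2.75 to 2.96, and up to 5.47 against 3.01 to 3.72. Among the defining markers, Cd3d averaged 3.82 at 16 weeks with an SD of 2.29, and Madcam1 averaged 3.43 with an SD of 0.85. Cd3e, Cd3g and Glycam1, the other defining markers of these 2 lists, are not given here. Of 11 measured T cell genes 2 were expressed. Averages over 5 mice do not show whether mice 3 and 4 carried the signal. Without these 2 mice, a setting chosen after the values were seen, the difference of Trim21 at 16 weeks was 0.10 (limma adjusted p = 1.00), and 1.42% of genes passed. Without mouse 2 of that age, the lowest Trim21 value and an array of low correlation, it was 0.56 (limma adjusted p = 0.0140), and 4.44% of genes passed. That omission also brought the unchanged difference of 0.40 at 12 weeks to an adjusted p of 0.0441, where 7.96% of genes passed. High lymph node vessel means were not particular to mice 3 and 4 at 16 weeks. At 4 weeks, where the mean of Trim21 was lowest, mice 3, 4 and 5 had 4.61, 5.42 and 4.76. Mouse 4 at 8 weeks had 4.35, and mouse 3 at 20 weeks had 5.44. The part of lymphoid tissue in the Trim21 values was not tested.

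Ssb passed no comparison, and its mean was lowest at 16 weeks. The 5 mice of 4 weeks had Ssb values of 7.66, 7.36, 7.61, 7.25 and 7.39, and those of 8 weeks had 7.51, 7.63, 7.77, 7.58 and 7.59. At 12 weeks they were 7.41, 7.64, 7.50, 7.49 and 7.46. Through 12 weeks every mouse thus lay between 7.25 and 7.77. At 16 weeks the values were 7.56, 6.45, 7.31, 7.17 and 7.43, and at 20 weeks 7.97, 7.68, 6.71, 7.68 and 7.26. The low points of 16 and 20 weeks were mouse 2 and mouse 3, both among the arrays of low correlation, and the highest Ssb value of all mice was also at 20 weeks.

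The mean Ssb level was 7.45 ± 0.17 (SD, n = 5) at 4 weeks, 7.62 ± 0.096 at 8 weeks, 7.50 ± 0.087 at 12 weeks, 7.18 ± 0.43 at 16 weeks and 7.46 ± 0.49 at 20 weeks. In order these were 8, 12, 20, 4 and 16 weeks, and no neighbours in this order passed the test. Against 4 weeks Ssb differed by 0.16, 0.05, -0.27 and 0.01 at 8, 12, 16 and 20 weeks (SE 0.19, limma adjusted p = 0.703, 0.870, 0.629 and 0.990). The intervals ran from -0.23 to 0.55, -0.35 to 0.44, -0.67 to 0.12 and -0.39 to 0.40. The largest difference between any ages was that of 16 against 8 weeks, of -0.43 (limma adjusted p = 0.578).

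The 4 probe sets of Ssb did not move together. Probe set 1416421_a_at read 5.90, 5.69, 6.02, 5.72 and 5.12 at 4 weeks and 4.95, 3.51, 4.81, 4.40 and 5.49 at 16 weeks, a difference of -1.06 (interval -1.93 to -0.18, limma adjusted p = 0.288 over all probe sets). The same probe set reached 7.09, 6.26 and 6.43 in mice 1, 2 and 4 at 20 weeks, the highest of the 25 apart from 6.65 in mouse 3 at 8 weeks. The other 3 probe sets differed by 0.20 (1416422_a_at), -0.22 (1416423_x_at) and -0.01 (1453928_a_at) at 16 weeks. Over the 25 arrays, Pearson's r between the probe sets of Ssb lay between -0.06 and 0.54. This is a description, since all probe sets of an array share its signal level and quality. Which transcripts each probe set reads was not tested.

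**Figure D2:**
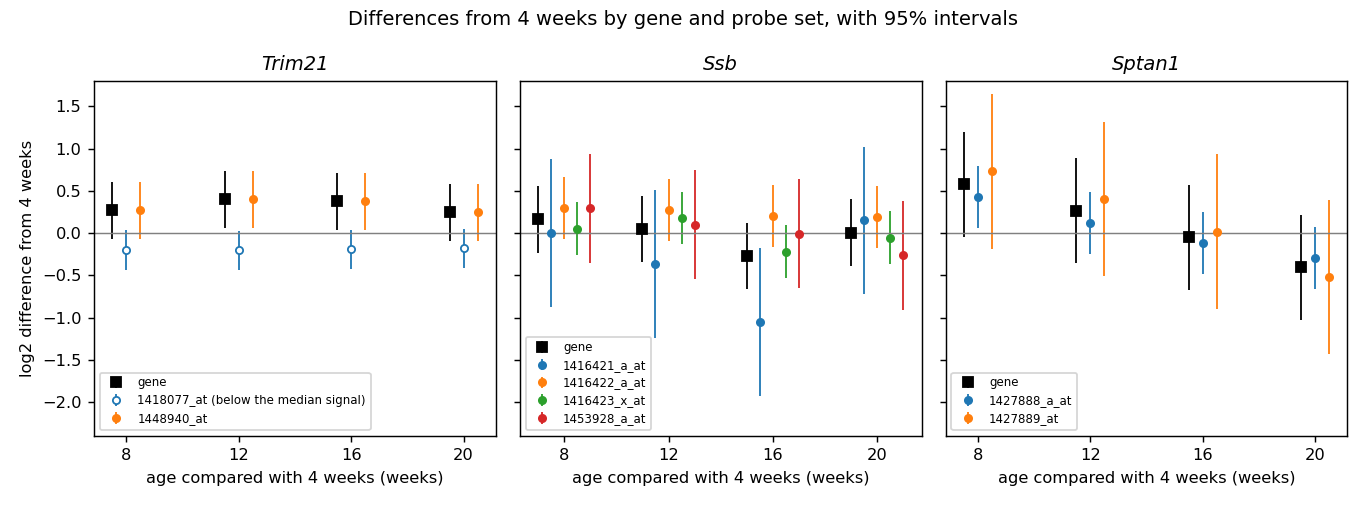
Difference from 4 weeks (vertical axis, log2) of each gene (black squares) and each of its probe sets (circles, open where the probe set lay below the median signal) at 8, 12, 16 and 20 weeks (horizontal axis), with 95% intervals. Ssb probe set 1416421_a_at lies at -1.06 at 16 weeks while its other 3 probe sets lie between -0.22 and 0.20, and the 2 probe sets of Sptan1 follow each other.

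Sptan1 had its highest mean at 8 weeks and its lowest at 20 weeks, where the mice were widely spread, and no comparison passed. Its values at 4 weeks were 8.50, 8.79, 8.10, 7.64 and 8.09, and at 8 weeks they were 8.70, 8.96, 9.04, 8.45 and 8.84. At 12 weeks they were 8.44, 8.57, 8.58, 8.38 and 8.46, the tightest group. At 16 weeks they were 8.57, 7.44, 8.13, 8.10 and 8.62, and at 20 weeks 8.75, 8.34, 6.71, 8.06 and 7.20. The 3 lowest Sptan1 values of all, 6.71, 7.20 and 7.44, came from the 3 arrays of low correlation.

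The mean Sptan1 level was 8.22 ± 0.44 (SD, n = 5) at 4 weeks, 8.80 ± 0.23 at 8 weeks, 8.49 ± 0.087 at 12 weeks, 8.17 ± 0.47 at 16 weeks and 7.81 ± 0.84 at 20 weeks. In order these were 8, 12, 4, 16 and 20 weeks, and again no neighbours passed the test. Against 4 weeks the differences were 0.58, 0.26, -0.05 and -0.41 (SE 0.30, limma adjusted p = 0.407, 0.631, 0.949 and 0.703). The largest difference of any member comparison was that of Sptan1 at 20 against 8 weeks, -0.98 (interval -1.60 to -0.37, limma adjusted p = 0.209). The 2 probe sets behaved alike, with r = 0.880 over the 25 arrays, but 1427889_at spread more, reading 5.54 and 6.53 in mice 3 and 5 at 20 weeks where 1427888_a_at read 7.89 and 7.87. Without mouse 3 the difference at 20 weeks against 4 weeks was -0.13, and without all 3 arrays of low correlation it was 0.16 (limma adjusted p = 0.541).

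Leaving out the 3 arrays of low correlation, or weighting arrays by their quality in limma, made several members pass, together with a large share of all genes. Without the 3 arrays, Trim21 passed at 12 and 16 weeks with differences of 0.40 and 0.56 (limma adjusted p = 0.0223 and 0.00810), Ssb at 20 weeks with 0.32 (0.0238) and Sptan1 at 8 weeks with 0.58 (0.0413). In that fit 16.6%, 43.3%, 33.3% and 32.1% of all genes passed at 8, 12, 16 and 20 weeks. With array weights, Trim21 passed at 12 and 16 weeks (0.42 and 0.50, limma adjusted p = 0.00692 and 0.0213) and Ssb at 20 weeks (0.26, limma adjusted p = 0.0325), where 54.9%, 19.9% and 35.9% of genes passed. A pass in these fits was thus common among all genes and is not particular to the members.

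Settings that equalise the arrays turned Ssb below 0 at 8, 12 and 20 weeks. With quantile normalization Ssb lay below 4 weeks at every later age, by 0.14, 0.29, 0.42 and 0.10 on the log2 scale, and passed at 16 weeks with -0.42 (limma adjusted p = 0.00759), where 6.14% of genes passed. With each array's upper quartile as a covariate, Ssb differed by -0.17, -0.29, -0.34 and -0.10 and passed at 12 and 16 weeks (limma adjusted p = 0.0131 and 0.00148), where 5.67% and 8.41% of genes passed. Sptan1 then passed at 20 weeks with -0.57 (limma adjusted p = 0.0207), where 8.1% of genes passed. Ssb at 20 weeks therefore lay below 4 weeks under both of these settings and above it, past the threshold, without the 3 arrays and with array weights, so no direction can be given for it.

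**Figure D3:**
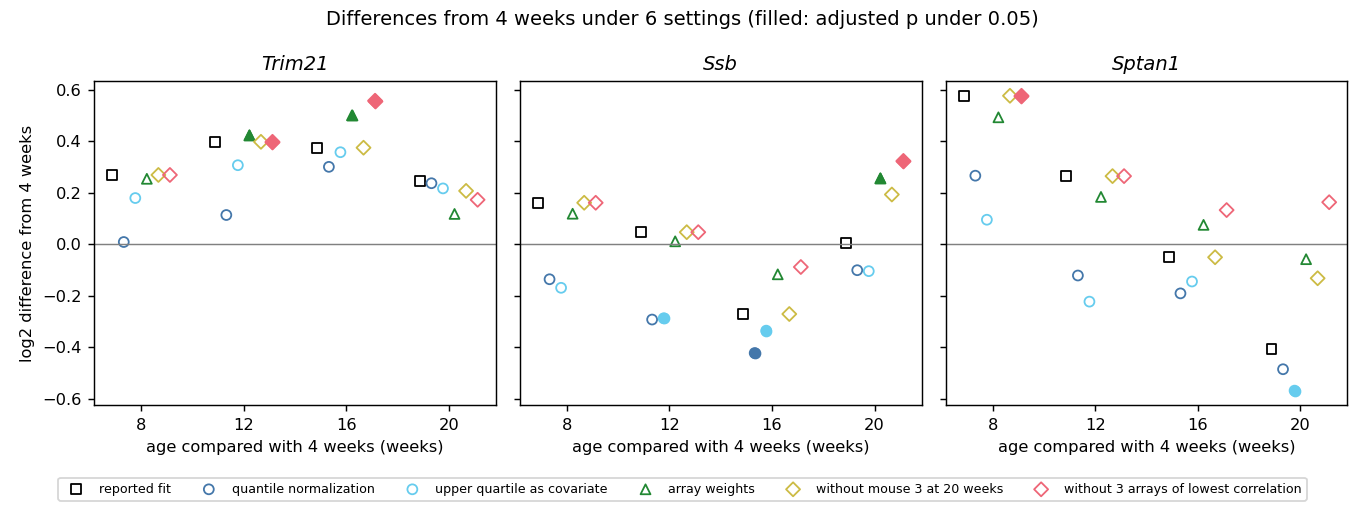
Difference from 4 weeks (vertical axis, log2) of each member at 8, 12, 16 and 20 weeks (horizontal axis) in the fit over all 25 arrays and under 5 other settings, with filled symbols where the adjusted p was under 0.05. All Trim21 differences lie above 0, whereas those of Ssb lie on both sides of 0 at 8, 12 and 20 weeks.

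The levels of Ssb and Sptan1 followed the upper quartile of the normalized signals of the array. The correlation of Trim21 with it did not pass the threshold, and the difference between the correlations was not tested. The upper quartile of all signals ranged from 5.19 to 5.98 over the arrays. Its correlation over the 25 mice was r = 0.880 with Ssb (rho 0.762), r = 0.824 with Sptan1 (rho 0.634) and r = 0.370 with Trim21 (rho 0.198), with permutation p-values adjusted over 10 relations of 0.0001, 0.0001 and 0.0988 for r and 0.0005, 0.00303 and 0.446 for rho. After removing the mean of each age r was 0.950, 0.878 and 0.303, and without the 2 arrays farthest from the median it was 0.726, 0.680 and 0.318. Without mouse 3 at 20 weeks alone r was 0.841, 0.749 and 0.505, and rho was 0.731, 0.586 and 0.290. Ssb and Sptan1 also correlated with each other (r = 0.754, rho 0.565, adjusted permutation p = 0.0005 and 0.00766), at r = 0.863 within ages and 0.575 without the 2 farthest mice. The correlations of Trim21 passed the threshold neither with Ssb (r = 0.135, rho -0.192, adjusted permutation p = 0.639 and 0.446) nor with Sptan1 (r = 0.073, rho -0.106, adjusted permutation p = 0.810 and 0.677).

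**Figure D4:**
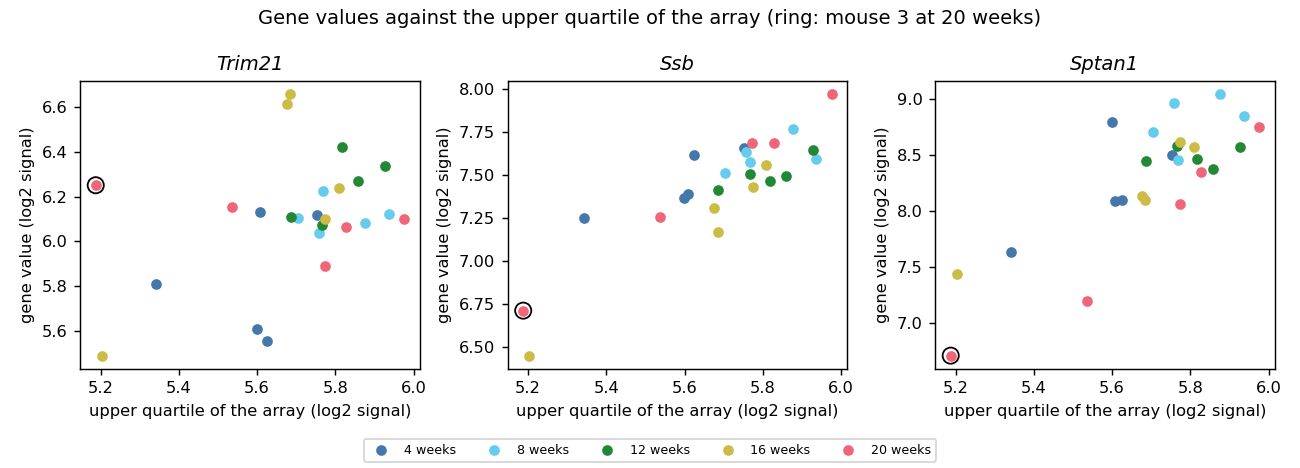
Gene value (vertical axis, log2 signal) of each member against the upper quartile of all signals of the array (horizontal axis, log2 signal), 1 point per mouse coloured by age, with a ring around mouse 3 at 20 weeks. Ssb and Sptan1 rise with the upper quartile (r = 0.880 and 0.824 over 25 mice), and the Trim21 points scatter more (r = 0.370, and 0.505 without the ringed mouse).

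The Gapdh 3′ minus 5′ difference gave a like picture. It correlated at r = -0.639 with Ssb (rho -0.632), r = -0.688 with Sptan1 (rho -0.486) and r = 0.036 with Trim21 (rho 0.088), with adjusted permutation p-values of 0.00665, 0.00126 and 0.852 for r and 0.00303, 0.0248 and 0.677 for rho. Within ages r was -0.753, -0.825 and 0.164. Without the 2 mice farthest from the median it was -0.493, -0.434 and -0.097. With this difference as a covariate, a setting chosen after the data were seen, the F-test over ages of Sptan1 had an adjusted p of 0.0103, and no comparison of a member with 4 weeks passed in limma, where 6.93%, 9.0%, 7.26% and 7.89% of all genes did.

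Trim21 is itself induced by interferon, and the other interferon-stimulated genes rose in part at 16 weeks. Of 42 measured genes of the list, 0 rose at 8 weeks, 1 at 12 weeks (Parp9, 1.48), 6 at 16 weeks and 2 at 20 weeks, and 0 fell. Of all genes 1.48%, 5.66%, 1.71% and 1.14% rose at these ages. The median difference of the list was 0.09, 0.30, 0.52 and 0.30, where that of all genes with an expressed probe set was 0.10, 0.14, 0.02 and 0.06, so that the list did not exceed it at 8 weeks. The genes that rose at 16 weeks were Cxcl9, a chemokine that draws T cells (1.61 ± 0.38 SE, limma adjusted p = 0.0190), the immunoproteasome subunits Psmb8 (0.91, 0.0250), Psmb9 (1.48, 0.0396) and Psmb10 (0.99, 0.0466), the GTPase Igtp (0.93, 0.0401) and the transcription factor Irf1 (0.79), which passed narrowly. Ifi27l2a (1.22, limma adjusted p = 0.0296) and the kinase Eif2ak2 (0.98, 0.0228) rose at 20 weeks. Oas1a, a sensor enzyme of viral RNA, did not pass (0.74 at 16 weeks, 0.78 at 20 weeks). Of these genes Cxcl9, Psmb8, Ifi27l2a and Oas1a were named by the rule for the list, and the others after their values were seen.

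The count at 16 weeks moved with the mice that were left out. It was 0 without mouse 1, 3 or 4 of that age or mouse 3 at 4 weeks, 1 without mouse 2 at 4 weeks, and 2 or 3 without mouse 1 or 4 at 4 weeks, mouse 1 or 2 at 8 weeks or any 1 mouse at 12 weeks. It was 16 without mouse 2 at 16 weeks, where 2.86% of all genes rose. Mouse 1 at 16 weeks had a list mean of 5.91, level with mouse 4 (5.91) and near mouse 3 (5.97), while its T cell and B and plasma cell means were 2.75 and 2.77. Without both mice 3 and 4, those with the high lymphoid marker means, 0 genes of the list rose at 16 weeks in limma, where 0.522% of all genes rose and 1.42% passed, and the list mean of the remaining 3 mice lay 0.39 above that of 4 weeks, against 0.58 with all 5. Without the 3 arrays of low correlation the count was 26, in a fit in which 11.9% of all genes rose.

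Across the 25 mice, Trim21 followed the mean of the interferon list, a relation chosen after the data were seen. The correlation was r = 0.661 (rho 0.592, adjusted permutation p = 0.000625 and 0.00600). It was 0.621 after removing the mean of each age (adjusted permutation p = 0.0226), 0.607 without the 2 mice farthest from the median and 0.541 within ages without the 3 arrays of low correlation. Without mice 3 and 4 at 16 weeks it was 0.499, and 0.477 within ages. The relation ran the other way at 20 weeks, where mouse 3 had the highest Trim21 value of that age, 6.25, with the lowest list mean, 5.13, and mouse 4 had the lowest Trim21 value, 5.89, with the highest list mean, 5.78. Of the 38 expressed genes of the list, 14, or 36.8%, had r above 0.5 with Trim21, against 7.31% of all 11695 expressed genes. Other lists had like values. Of 12 macrophage genes 5, or 41.7%, had r above 0.5 with Trim21, with a median r of 0.40 where that of the interferon list was 0.38, and the 5 expressed B and plasma cell genes had a median r of 0.46, and of 0.61 within ages. Named after their values were seen, the highest were Tap1, the peptide transporter of antigen presentation (r = 0.76), Psmb8 (0.69) and Psmb10 (0.68), and 5 genes of the list had r below 0, Oas2 lowest at -0.34. For Ssb and Sptan1 the median r with the list was -0.04 and -0.14, where that with all expressed genes was 0.33 and 0.31. Within ages the median r with the list was 0.32 for Trim21, 0.23 for Ssb and 0.03 for Sptan1. With all expressed genes the medians within ages were 0.07, 0.41 and 0.35, and the difference between the members was not tested.

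**Figure D5:**
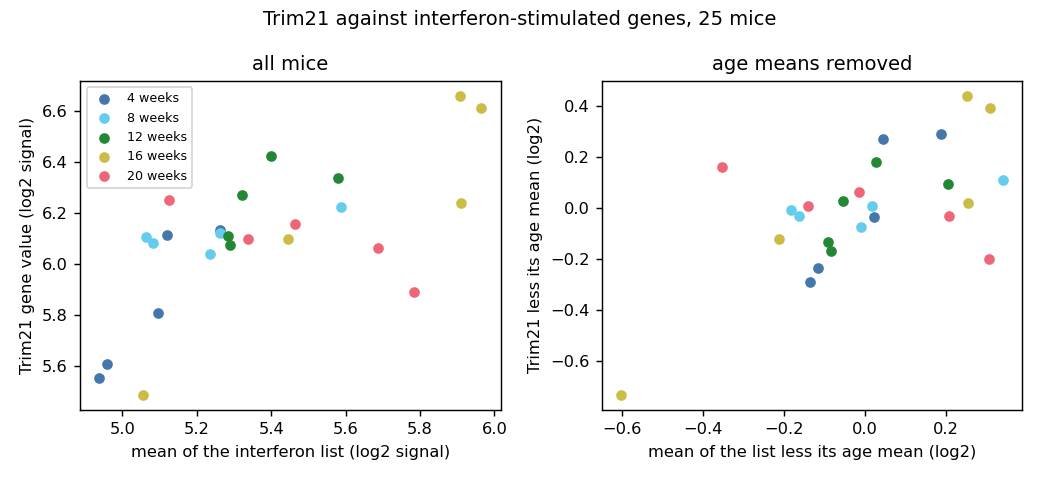
Trim21 value (vertical axis, log2 signal) against the mean of 42 interferon-stimulated genes (horizontal axis, log2 signal) in 25 mice coloured by age, as measured (left) and after the mean of each age was removed (right). The points rise together over all mice, with r = 0.661 on the left and 0.621 on the right, while those of 20 weeks run the other way, and mouse 2 at 16 weeks lies lowest in both axes on the right.

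Genes that act with Trim21 passed at no single age. The 20 measured partners include the interferon regulatory factors that it ubiquitinates and its ubiquitin-conjugating enzymes. Of these 20, 0 rose or fell at any age, where 2.26%, 7.01%, 3.4% and 2.65% of all genes passed at 8, 12, 16 and 20 weeks. An unadjusted p under 0.05 in limma was found for 6, 8, 5 and 2 of them at these ages, and for 14.0%, 20.7%, 14.4% and 12.4% of all genes. With the smallest p in the F-test over ages, Mavs, the mitochondrial adaptor of RNA sensing, passed that test (limma adjusted p = 0.0452) and differed by 0.54 at 12 weeks (limma adjusted p = 0.0609), Tbk1, a kinase downstream of it, by 0.56 (0.145), Irf8 by 1.36 (0.0856) and Irf7 by 0.10 (0.758). With array weights 9 partners rose at 12 weeks and 10 at 20 weeks, in fits in which 20.5% and 13.5% of genes rose. Of 34 other TRIM genes 1 rose, Trim37 at 12 weeks (0.50, limma adjusted p = 0.0147), and 0 fell, where 5.66% of all genes rose at that age. This count was 0 without mouse 4 at 4 weeks or mouse 2 at 12 weeks, 2 without mouse 1 or 5 at 4 weeks or mouse 1 or 5 at 20 weeks, and 8 without mouse 3 at 20 weeks, where 13.3% of all genes rose. With array weights 10 rose and 3 fell at 12 weeks, where 20.5% of all genes rose and 54.9% passed in either direction. Trim28, Trim41 and Trim47 differed by 0.56, 0.53 and 0.80 at that age without passing.

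Among genes that act beside Ssb, 1 La-related gene fell and 1 gene of RNA polymerase III rose, and both counts moved with the processing. Of the 6 La-related proteins, which share the La RNA-binding fold, Larp7, the chaperone of the 7SK RNA, fell by 0.61 at 20 weeks (limma adjusted p = 0.0139) from a mean of 7.43 to 6.82, where 1.52% of all genes fell. With quantile normalization 0 of the 6 fell at that age. Larp1, Larp1b, Larp4, Larp4b and Larp6 passed at no age, with differences from 4 weeks between -0.60 and 0.53. Of 23 subunits and factors of RNA polymerase III, whose transcripts La binds, 1 rose, Crcp at 12 weeks (0.69, limma adjusted p = 0.0236), where 5.66% of genes rose. This count was 0 without mouse 4 at 4 weeks or mouse 2 or 4 at 12 weeks, 2 without mouse 2 at 4 weeks, mouse 5 at 8 weeks or mouse 1 at 12 weeks, 5 without mouse 3 at 20 weeks and 12 with array weights. At 12 weeks 13.3% of all genes rose without mouse 3 at 20 weeks, and 20.5% with array weights. Gtf3c1, Polr3e and Polr3k differed by 0.64, 0.45 and -0.16 at 12 weeks without passing. Ro60, the other Ro antigen and a binder of Y RNAs with La, passed at no age (0.35, -0.11, -0.26 and -0.09 at 8, 12, 16 and 20 weeks). The correlation of Ro60 over the 25 mice was r = 0.75 with Ssb and 0.78 with Sptan1, and -0.03 with Trim21. Of all expressed genes 34.7%, 36.2% and 7.31% had r above 0.5 with Ssb, Sptan1 and Trim21, so such values are not particular to Ro60.

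Of the 13 other genes for reported SjS autoantigens, Cenpa alone passed. Cenpa, the histone of the centromere and a mark of dividing cells, fell at every later age, with differences of -1.61, -1.60, -1.46 and -1.54 (limma adjusted p = 0.00423, 0.00218, 0.00574 and 0.00406), from a mean of 4.90 at 4 weeks to between 3.30 and 3.44, close to the median signal. Of all genes 0.78%, 1.36%, 1.68% and 1.52% fell at those ages. Numa1, a spindle protein, Cenpc1 and Ifi204 passed at no age.

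Some genes of the spectrin skeleton rose at 12 weeks. Among the beta-spectrins, Sptbn1, the main partner in epithelia, differed by 0.30, -0.31, -0.33 and -0.01 without passing, and Sptb and Sptbn4 lay below the median signal and did not pass. Of 21 other genes of the spectrin skeleton 4 rose at 12 weeks, where 5.66% of genes rose. These were the adaptor Ank3 (1.21, limma adjusted p = 0.0127), the band 4.1 genes Epb41l1 (1.13, 0.00746) and Epb41l4a (1.43, 0.00908) and the actin-capping Tmod1 (1.16, 0.0252). At the other ages 0 passed in this fit. In limma 2, 2 and 3 had an unadjusted p under 0.05 at 8, 16 and 20 weeks, where 14.0%, 14.4% and 12.4% of all genes did. Without mouse 1 at 4 weeks 2 rose at 8 weeks, and without mouse 3 at 20 weeks 3 rose at 20 weeks, where 6.23% of genes rose. With array weights 7 genes were called higher at 12 weeks and 6 at 20 weeks, and 5 were called lower at each of these ages. Of all genes 20.5% and 13.5% rose at 12 and 20 weeks in that fit, and 54.9% and 35.9% passed in either direction. Of 12 proteases that cut alpha-fodrin or are of their families, the calpain Capn5 rose at 12 weeks (1.37, limma adjusted p = 0.0102), and Gzma, a granzyme of cytotoxic cells, rose at 20 weeks (1.13, 0.0139), where 1.14% of genes rose. Without mouse 3 at 20 weeks 6 of the 12 rose at 12 weeks, and with array weights 7 did, where 13.3% and 20.5% of all genes rose. Capn2, the catalytic subunit of m-calpain, differed by 0.85 at 12 weeks (0.0827) and Capn15 by 0.15 (0.623).

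By correlation over the 25 arrays among 11695 expressed genes, the genes most alike to Trim21 were Cyb561a3 (r = 0.912), Smchd1 (0.852), Clu (0.840), Bmp2k (0.819) and Sting1 (0.812), the last the adaptor of cytosolic DNA sensing. Without mouse 3 at 20 weeks their r lay between 0.818 and 0.914. The genes most alike to Ssb were Cp, Klhl7, Alg10b, Mmgt1 and F13a1, with r from 0.914 to 0.929. Those most alike to Sptan1 were Pdcd6ip, Ubap2, Rad17, Ubxn4 and Iars, with r from 0.933 to 0.947. High values were common for these members, since 34.7% and 36.2% of all expressed genes had r above 0.5 with Ssb and Sptan1.

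Markers of infiltrating cells rarely passed. Of 11 T cell genes 2 were expressed and 0 passed, of 11 B and plasma cell genes 0 passed, of 4 lymph node vessel genes 0 passed, and of 12 macrophage genes Cd14 (1.32, limma adjusted p = 0.0456) rose at 12 weeks and C1qb at 16 weeks (0.94, 0.0468). The T cell markers Cd3d, Cd3e and Cd3g all had means over the 25 arrays below the median signal. The lymph node vessel list mean ranged over the mice from 3.14 to 5.42 at 4 weeks and 2.99 to 4.35 at 8 weeks. At 12, 16 and 20 weeks it ranged from 2.99 to 3.18, 3.01 to 5.47 and 3.03 to 5.44. Over the mice of 4, 8, 12, 16 and 20 weeks the T cell list mean ranged from 2.76 to 3.07, 2.71 to 3.05, 2.72 to 2.76, 2.75 to 3.79 and 2.70 to 3.35, and that of the B and plasma cell list from 2.64 to 3.72, 2.57 to 3.65, 2.60 to 2.87, 2.65 to 6.14 and 2.59 to 4.78. Among markers of gland cells, 9 fibroblast genes fell in 3, 4, 4 and 3 cases at 8, 12, 16 and 20 weeks, 9 endothelial genes in 0, 4, 3 and 3, and 10 acinar genes in 0, 0, 1 and 2, where 0.78%, 1.36%, 1.68% and 1.52% of all genes fell. Of 8 myoepithelial genes 2 rose at 12 weeks, of 11 duct genes 1 rose at 8, 12 and 20 weeks and 1, 2 and 1 fell at 12, 16 and 20 weeks, and of 8 skeletal muscle genes 0 passed. Of all genes 1.48%, 5.66%, 1.71% and 1.14% rose at 8, 12, 16 and 20 weeks. The part of the cell types above in the values of the members was not tested.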

How the data were processed

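RNA of 25 salivary glands was hybridised to expression arrays of 45101 probe sets, 1 per mouse. The values deposited by the authors are normalized log2 signals, made with GCRMA per the study's methods and with RMA per the submitters' processing notes. The sources used here name no version of either. No scanner files were used, so the step from raw to deposited signals was not redone. The number of arrays limits the precision. The platform annotation, which can be old, gave 34958 probe sets 1 gene symbol, 932 several and listed no gene for 9211. Symbols were updated through a gene table, which held 34754 of them. A gene's value was the mean over its expressed probe sets (over all its probe sets if none was), and 11696 of 18194 genes had one.

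The 5 ages were fitted in 1 model over all 25 arrays with limma 3.58.1 in R 4.3.3 (moderated test, Benjamini-Hochberg adjustment over all genes). The B-statistic used orthogonal polynomials in age with a threshold of 1.5. Correlations were tested with 100000 permutations, two-sided, adjusted over 10 relations, in Python 3.11.15 with numpy 2.4.6, pandas 2.3.3 and scipy 1.17.1, and plots were drawn with matplotlib 3.10.9. The code was tested on simulated data. The members and the gene lists were chosen with earlier results of these data known. Named were the members, all La-related genes, spectrins and Ro60, up to 4 genes of each pathway list with the smallest p in the F-test over ages, and the 5 genes of highest Pearson r with each member. Alternatives were other probe set summaries, quantile normalization, array weights, covariates, a replicate block, other filters and the omission of arrays. Omitting the 3 arrays of lowest correlation or mice 3 and 4 at 16 weeks, the Gapdh covariate and the relation of Trim21 with the interferon list were chosen after the data were seen.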

Additional observations from a re-analysis of the deposited data

Results flagged for a closer look

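In 4 of the 50 sets of 5 mice examined, 1 mouse lay far from the others of its age. Chance gives this in about 1 in 20 such sets, so 4 of 50 is near what chance gives. Trim21 probe set 1418077_at, which lay below the median signal, read 3.17 in mouse 4 at 4 weeks and 2.27 to 2.28 in the others. Ssb probe set 1416422_a_at was highest in mouse 4 at 8 weeks, at 8.55, and Ssb probe set 1453928_a_at was lowest in mouse 3 at 20 weeks, at 6.94, the array of lowest correlation. Sptan1 probe set 1427888_a_at was highest in mouse 3 at 12 weeks, at 8.72.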

How the results depend on the processing

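Of the values of the members recomputed under the alternatives, 538 kept their direction and their side of the threshold, 20 passed it and 34 turned direction. No value of a member passed in the reported fit, so none could lose the threshold. The causes were not tested. Leaving out 1 mouse at a time, Trim21 differed from 4 weeks by 0.20 to 0.34, 0.33 to 0.47, 0.27 to 0.56 and 0.17 to 0.32 at 8, 12, 16 and 20 weeks (F-test adjusted p 0.0585 to 0.691), Ssb by 0.11 to 0.21, -0.0044 to 0.097, -0.36 to -0.089 and -0.12 to 0.19 (0.195 to 0.715), and Sptan1 by 0.43 to 0.72, 0.12 to 0.41, -0.20 to 0.13 and -0.64 to -0.13 (0.0747 to 0.375).

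With array weights Trim21 was 0.42 and 0.50 at 12 and 16 weeks, Ssb 0.26 at 20 weeks and Sptan1 0.075 at 16 weeks, with F-test adjusted p of 0.0161 for Trim21 and 0.0233 for Ssb. Without the 3 arrays of low correlation, chosen after seeing the data, Trim21 was 0.40 and 0.56, Ssb 0.32, and Sptan1 0.58, 0.13 and 0.16 at 8, 16 and 20 weeks, with F-test adjusted p of 0.0282 for Trim21 and 0.0356 for Ssb. With quantile normalization Ssb was -0.14, -0.29, -0.42 and -0.10 (F-test adjusted p 0.0299), and Sptan1 was -0.12 at 12 weeks. With the upper quartile as a covariate Ssb was -0.17, -0.29, -0.34 and -0.10 (0.00674), and Sptan1 was -0.22 and -0.57 at 12 and 20 weeks (0.0321). With the Gapdh covariate, chosen after seeing the data, Ssb was -0.097 and -0.013 at 12 and 20 weeks, and the F-test of Sptan1 gave 0.0103. By the brightest probe set Ssb was -0.26 at 20 weeks. By single probe sets, Trim21 by 1418077_at was -0.20, -0.20, -0.19 and -0.18. That probe set lay below the median signal, and its 4-week mean included mouse 4 at 3.17. Its medians were 2.28 at 4 weeks and 2.25, 2.25, 2.26 and 2.26 at the later ages. Ssb by 1416421_a_at was -0.00028 and -0.36 at 8 and 12 weeks, by 1416422_a_at 0.20 at 16 weeks, and by 1416423_x_at and 1453928_a_at -0.054 and -0.26 at 20 weeks. Sptan1 by 1427889_at was 0.016 at 16 weeks.

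Each age had its own mice, so the mouse numbers did not pair mice across ages. After the mean of each age was removed, same-numbered mice correlated at a median r of -0.038 over 50 pairs (-0.61 to 0.60). Mice of other numbers correlated at 0.0071 over 200 pairs. Whether a shared number marks a shared litter was not tested. With the replicate block Trim21 was 0.40 at 12 weeks (limma adjusted p = 0.164), and the block changed no call of a member.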
